A study of Mus musculus with 6 samples.

Results

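The genes of the integrated stress response were followed through 6 single mouse olfactory sensory neurons. The 10 genes, of 55341 in the count table, are Eif2ak3, Eif2s1, Atf4, Atf5, Ddit3, Trib3, Ppp1r15a, Chac1, Sesn2 and Asns, and they were chosen by name, selected on their known roles and on their counts in these same cells. Their levels are therefore a description, and no test is attached to them. Olfactory sensory neurons line the nasal cavity and each senses odours through mainly 1 receptor gene. The cells came from wild-type C57BL/6 mice aged 6 weeks, were frozen singly after a physiological recording, and gave 1 CEL-Seq2 library each (cells 1 to 6, labelled OSN1 to OSN6). All 6 cells form 1 group without treatment, and the animals behind them are not named, so every interval covers counting error within a library and not the variation between animals.

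The integrated stress response is a pathway that slows protein synthesis when a cell is under strain. Stress-sensing kinases, among them the endoplasmic reticulum kinase PERK (Eif2ak3), phosphorylate the alpha subunit of the translation factor eIF2 (Eif2s1), which lowers general translation while favouring translation of the messages of a few transcription factors, ATF4, ATF5 and CHOP (Ddit3). These factors activate genes for amino acid supply, redox balance and, on prolonged stress, cell death, and Ppp1r15a (GADD34) closes the loop by directing a phosphatase back to eIF2 alpha. In olfactory neurons the PERK to ATF5 branch is known as a feedback signal by which an expressed odorant receptor stabilises its own choice. Because much of this control acts on translation and phosphorylation, messenger RNA levels do not report the activity of the kinase, of eIF2 or of the translated factors directly.

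Total counts were 8613, 34478, 122546, 60902, 22525 and 11725 in cells 1 to 6. Levels are given per 1000000 counts (CPM), on which scale 1 count equals 8.16 CPM in the deepest library, cell 3, and 116 CPM in the shallowest, cell 1. Mitochondrial transcripts took 4.40% (cell 4) to 14.4% (cell 1) of the counts. Cells 1 and 2 had Olfr740 as their leading receptor gene, cells 3 and 4 had Olfr741, and Olfr743 led the last pair. The 9 fixed markers of mature olfactory neurons, such as Omp and Gnal, were all found in cells 1 to 5, and 6 of 9 in cell 6. Whether a count is a molecule or a sequenced read is not given in the sources used here. If it is a read, several counts can come from 1 molecule and the intervals are too narrow.

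Every one of the 10 genes had a count in at least 1 cell, but they divided sharply by how widely they were found. Atf5 and Atf4 had counts in all 6 cells. Ppp1r15a was found in 5 cells, Ddit3 and Trib3 in 4, Eif2ak3 in 3, Sesn2 and Asns in 2, and Chac1 and Eif2s1 in 1. Of the 10 genes, 5, 5, 8, 8, 6 and 2 were found in cells 1 to 6. At an equal depth of 8613 counts the expected number would be 6.10 in cell 4, 5.0 in cell 1 and from 3.73 to 4.04 in cells 2, 3 and 5, and cells 3 and 4, level at 8 genes as sequenced, would differ. Only 5 genes reached the 20 counts over all cells that were required for fold and spread, namely Atf5, Atf4, Ddit3, Trib3 and Ppp1r15a. Ddit3, Trib3 and Ppp1r15a had 16, 17 and 14 counts outside cell 4, so these 3 reached the minimum only through the cell where they were highest.

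**Figure D1:**
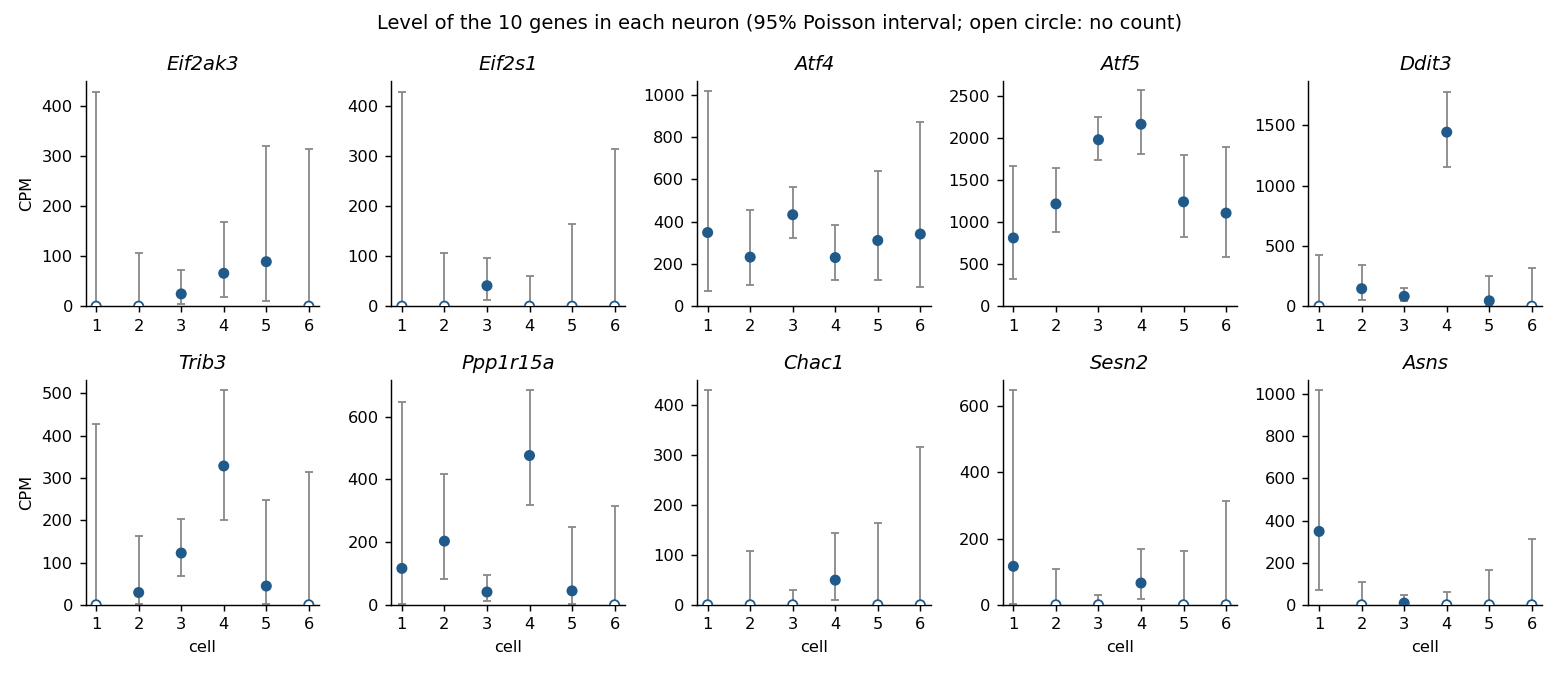
Level of each of the 10 genes in CPM (vertical axes, a separate scale per gene) in cells 1 to 6. Points are single neurons, bars are exact 95% Poisson intervals and open circles mark cells without a count. Atf5 lay between 813 and 2167 CPM in all 6 cells, whereas Ddit3 stood at 1445 CPM in cell 4 and at no more than 145 CPM elsewhere.

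The start of the pathway was near the limit of detection. Eif2ak3, which encodes PERK (chromosome 6, 70844515 to 70905245, plus strand, GRCm38), was found 3 times in cell 3, 4 times in cell 4, 2 times in cell 5 and not in the remaining cells. These counts correspond to 24.5, 65.7 and 88.8 CPM, with intervals that overlapped (5.05 to 71.5, 17.9 to 168 and 10.8 to 321 CPM). No ordering of the cells can be read from them. Eif2s1, the regulated alpha subunit of eIF2 (chromosome 12, 78861819 to 78887010, plus strand), had 5 counts in cell 3 (40.8 CPM) and 0 in each other cell. A count of 0 allows up to 49.3 CPM in cell 4 at 3 counts and up to 348 CPM in cell 1, so the level of cell 3 lay under the limit of each cell without a count. At the rate of cell 3, 2.48 counts would fall in cell 4 and 0.351 in cell 1. Among the other eIF2 alpha kinases, Eif2ak1 had 1 count in cell 2, and Eif2ak2 and Eif2ak4 had none in any cell. The smallest level that a count of 0 excludes in a single cell is 24.5 CPM, the 3-count limit of cell 3.

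Atf5 was found in every neuron. The gene encodes a bZIP transcription factor and lies on the minus strand of chromosome 7 (44812256 to 44816658). It had 7, 42, 243, 132, 28 and 13 counts in cells 1 to 6. These gave 813 CPM in cell 1 (95% Poisson interval 327 to 1675), 1218 in cell 2 (878 to 1647), 1983 in cell 3 (1741 to 2249), 2167 in cell 4 (1813 to 2570), 1243 in cell 5 (826 to 1797) and 1109 in cell 6 (590.4 to 1896). The median was 1231 CPM, and the highest cell exceeded the lowest by 2.67-fold. Cells 4 and 3 were the highest, the other 4 cells overlapped one another, and the interval of cell 4 lay above those of cells 1, 2 and 5.

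Between neighbours in this order, the ratio of cell 4 to cell 3 was 1.09 (95% exact binomial interval 0.877 to 1.36), and that of cell 3 to cell 5, the next cell, was 1.60 (1.08 to 2.45). The further steps, cell 5 to 2, 2 to 6 and 6 to 1, had ratios of 1.02, 1.10 and 1.36 with intervals that included 1. The pooled level of the Olfr741 cells 3 and 4 was 2044 CPM, against 1164 CPM in the other 4 cells (ratio 1.76, 1.39 to 2.24). Both cells lying above all others was found for 14.0% of the 2901 genes with at least 20 counts. Cells 3 and 4 are also the deepest libraries, so the shared receptor and the depth cannot be told apart. Trib3 was the other of the 5 genes with this order, and Atf4, Ddit3 and Ppp1r15a did not have it.

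Atf4 was the most even of the genes with enough counts. It encodes the central transcription factor of the response and is a single-exon gene in the annotation used (chromosome 15, 80255184 to 80257541, plus strand). Its 3, 8, 53, 14, 7 and 4 counts in cells 1 to 6 gave 348, 232, 432, 230, 311 and 341 CPM. The highest cell, cell 3 (324 to 566 CPM), exceeded the lowest, cell 4 (126 to 386 CPM), by 1.88-fold (1.03 to 3.67). Of the 15 pairs of cells, this was the only one whose ratio interval excluded 1. In cell 4 Atf4 stood at 0.613 of the pooled level of the other cells (0.320 to 1.09). The cell with the most Ddit3 therefore had no excess of Atf4 message.

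Ddit3 was concentrated in 1 neuron. The gene encodes CHOP, a bZIP transcription factor associated with unresolved stress, and lies on the plus strand of chromosome 10 (127290774 to 127296288). It had 0, 5, 10, 88, 1 and 0 counts in cells 1 to 6. The level was 1445 CPM in cell 4 (1159 to 1780.2), 145 CPM in cell 2 (47.1 to 338), 81.6 CPM in cell 3 (39.1 to 150.1) and 44.4 CPM in cell 5 (1.12 to 247). Cell 4 did not overlap any other cell, and cells 2, 3 and 5 overlapped one another.

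Cell 4 exceeded the pooled other cells, which had 16 counts and 80.0 CPM, by 18.1-fold (10.5 to 33.0). It exceeded cell 2 by 9.96-fold (4.11 to 31.4), cell 3 by 17.7-fold (9.19 to 38.2) and cell 5 by 32.5-fold (5.69 to 1300.0). Against the floor of 3 counts per library it was at least 4.15-fold higher than cell 1 and at least 5.65-fold higher than cell 6. At the rate of cell 4, 12.4 counts would fall in cell 1 and 16.9 in cell 6, where none was seen. Ranked by this fold among the 2901 genes, Ddit3 took place 3, after Coro1c and Stk32a, which were named after their values were seen. Ddit3 reached the minimum count for this ranking only through cell 4, so nothing is read from its place. Coro1c had 30 counts in cell 4 and 0 elsewhere (at least 32.8-fold against 3 counts over the other cells), and Stk32a had 23 and 3.

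The ratio of Ddit3 to Atf5 within a cell needs no scaling between libraries. Ddit3 made up 40.0% of the summed counts of both genes in cell 4 (88 of 220, 95% Clopper-Pearson interval 33.5% to 46.8%). The share was 10.6% in cell 2 (3.55% to 23.1%), 3.95% in cell 3 (1.91% to 7.15%) and 3.45% in cell 5 (0.0873% to 17.8%). In cells 1 and 6 it was 0 of 7 and 0 of 13, with upper bounds of 41.0% and 24.7%, so the share of cell 1 could be as high as that of cell 4. Pooled over the other 5 cells the share was 4.58% (16 of 349, 2.64% to 7.34%). Against Atf4, Ddit3 made up 86.3% of the counts of both genes in cell 4 (78.0% to 92.3%) and 17.6% in the other cells (10.4% to 27.0%). These shares are not corrected for transcript length and are compared between cells, not between genes.

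**Figure D2:**
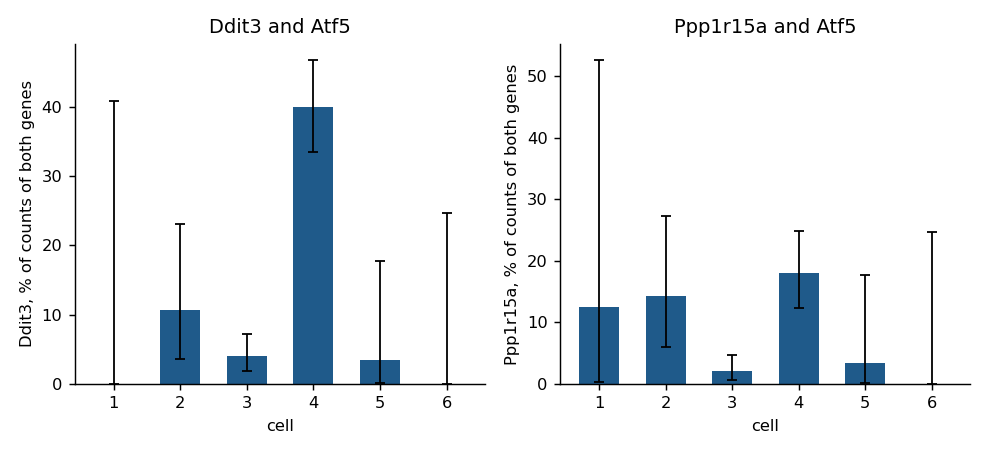
Share of Ddit3 (left) and of Ppp1r15a (right) in the summed counts of that gene and Atf5 in each cell (columns, vertical axis in percent from 0), with exact 95% Clopper-Pearson intervals as lines. The Ddit3 share of cell 4 (40.0%) lies above the intervals of cells 2, 3, 5 and 6, while the Ppp1r15a share of cell 4 (18.0%) lies inside those of cells 1, 2 and 6.

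Ppp1r15a and Trib3, both feedback inhibitors of the response, were also highest in cell 4. Ppp1r15a (GADD34, chromosome 7, 45522916 to 45526268, minus strand) had 1, 7, 5, 29, 1 and 0 counts in cells 1 to 6, or 116, 203, 40.8, 476, 44.4 and 0 CPM. Cells 4 and 2 were the highest, and the intervals of cell 4 (319 to 684 CPM) and cell 2 (81.6 to 418 CPM) overlapped. Cell 4 exceeded the pooled others by 6.80-fold (3.48 to 13.9), with ratios of 11.7 to cell 3 (4.47 to 38.6) and 2.35 to cell 2 (1.01 to 6.34). The interval against cell 1, with 1 count, included 1 (ratio 4.10, 0.680 to 168). Without cell 2 the fold against the pooled others was 11.3, and without cell 3 it was 4.09. Ppp1r15a thus differed clearly between cells 3 and 4, but cell 2 was not far below cell 4. The constitutive partner Ppp1r15b (CReP) had 11 counts in cell 4 and stood at 1.81-fold the pooled others there (0.781 to 3.95).

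Trib3, a pseudokinase that binds and restrains ATF4 and CHOP signalling (chromosome 2, 152337422 to 152344032, minus strand), had 0, 1, 15, 20, 1 and 0 counts. At 328 CPM cell 4 was highest (201 to 507), followed by cell 3 at 122 CPM (68.5 to 202), and cells 5 and 2 had a single count each. Cell 4 exceeded cell 3 by 2.68-fold (1.31 to 5.63) and the pooled others by 3.86-fold (1.92 to 7.85). The pooled level rests on cell 3, and without it the fold was 12.7 (3.08 to 112). Cell 3 itself was not separated by counting error from cell 5 (ratio 2.76, 0.424 to 116) or cell 2 (4.22, 0.649 to 178), and the limits of cells 1 and 6 lay above its level.

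Of the 5 genes with at least 20 counts, Ddit3 and Ppp1r15a were at least 4-fold higher in cell 4 than in the pooled other cells, against 4.21% of all genes with that minimum. The nearest values on either side of this limit were 6.80 for Ppp1r15a and 3.86 for Trib3, which passed it (4.01) under median-of-ratios scaling. Cell 4 was the highest cell for 4 of the 5 genes, against 22.1% of all genes. Since the list was chosen with these values known, and the minimum was reached through cell 4 by the called genes, nothing is read from those shares.

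**Figure D3:**
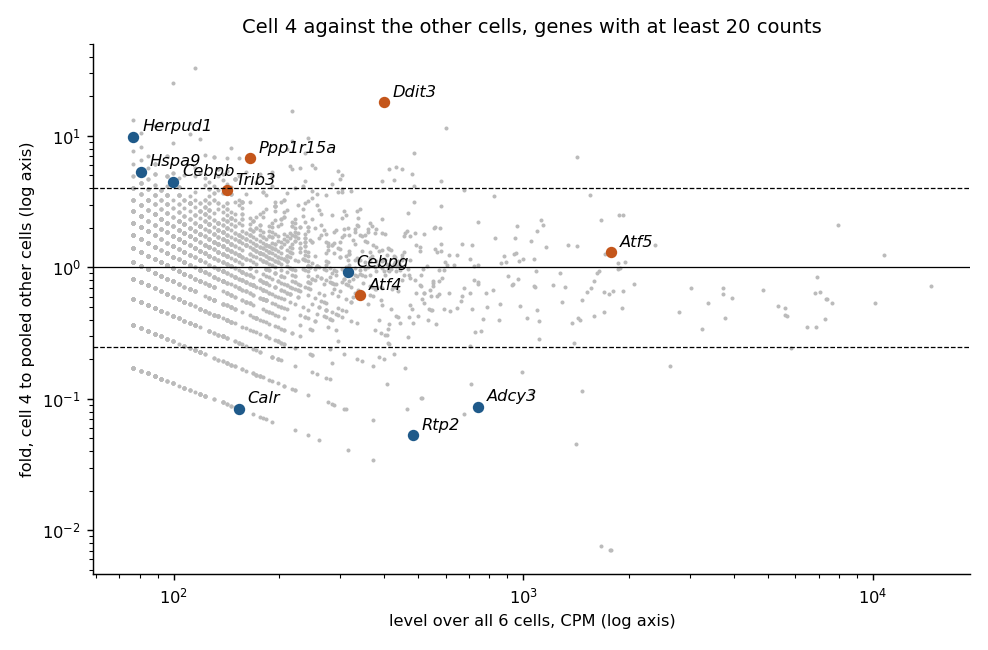
Fold of cell 4 against the pooled other 5 cells (vertical log axis) by the level over all cells (horizontal log axis, CPM) for genes with at least 20 counts. Grey points are single genes, orange points are the 5 followed genes that reached the minimum, blue points are 7 other genes of the pathway lists named in the text, and dashed lines mark 4-fold in either direction. A total of 161 genes without a count in cell 4 cannot be drawn on the log axis, and genes without a count in the other cells are drawn at the lower bound that 3 counts there give. Ddit3 lies at 18.1, far above Atf5 at 1.30 and Atf4 at 0.613.

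The remaining effectors were sparse. Chac1, which degrades glutathione, had 3 counts in cell 4 (49.3 CPM, 10.2 to 144) and none elsewhere (chromosome 2, 119351229 to 119354381, plus strand). Its limit in cell 3, 24.5 CPM, lies inside that interval. Sesn2, a stress-induced regulator of growth signalling (chromosome 4, 132492032 to 132510501, minus strand), was found 4 times in cell 4, at 65.7 CPM, and 1 time in cell 1, at 116 CPM. For Sesn2 cell 4 stood at 13.1-fold the pooled others, with an interval from 1.30 to 647. Asns, asparagine synthetase (chromosome 6, 7675169 to 7693254, minus strand), had 3 counts in cell 1, 1 in cell 3 and 0 in cell 4. The pooled rate of the other cells predicts 1.22 Asns counts in cell 4, and the ratio of cell 4 to cell 1 had an upper bound of 0.342.

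Ddit3, Trib3, Ppp1r15a and Chac1 had their highest level in cell 4 together with Atf5, and their promoters were searched for a shared element. The C/EBP-ATF composite element, through which ATF4 and CHOP are known to act with C/EBP partners, has the core TGATGNAA, or TTNCATCA on the other strand. Windows from 250 bases before to 50 bases after the gene start were taken from RefSeq (GRCm38.p6), where all 10 genes had at least 1 window. The core occurred in 3 of the 10 genes, Trib3, Chac1 and Asns, and in 4.51% of the 27025 genes with a window. Counted from the RefSeq start as 0, the match lay 14 to 21 bases after the start of Trib3. It lay from -193 to -186 in Chac1 and from -23 to -16 in Asns. The RefSeq starts differ from the gene positions given above, by which the Trib3 match lies before the gene and the Asns match inside it. It is shown in capitals in 30 bases, 5′ to 3′ along the gene.
Trib3, chr2:152344028-152344057, minus strand: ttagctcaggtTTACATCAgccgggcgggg
Chac1, chr2:119351038-119351067, plus strand: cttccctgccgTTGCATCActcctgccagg
Asns, chr6:7693214-7693243, minus strand: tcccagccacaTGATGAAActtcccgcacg

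The match thus fell in 2 genes that were highest in cell 4 and in 1 that had no count there. Ddit3 and Ppp1r15a, the 2 genes past 4-fold in cell 4 among those with at least 20 counts, held no match in the window. Their 250 bases before the RefSeq start are given because these 2 had the highest fold in cell 4 among the followed genes with that minimum. Their GC content was 64.8% and 54.4%. No letters are in capitals, since no match was found.
Ddit3, chr10:127290543-127290792, plus strand: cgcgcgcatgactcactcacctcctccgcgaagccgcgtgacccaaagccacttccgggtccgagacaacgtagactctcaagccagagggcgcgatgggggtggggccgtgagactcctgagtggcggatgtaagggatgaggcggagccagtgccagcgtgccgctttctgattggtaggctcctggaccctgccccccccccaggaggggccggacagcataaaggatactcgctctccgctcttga
Ppp1r15a, chr7:45526269-45526518, minus strand: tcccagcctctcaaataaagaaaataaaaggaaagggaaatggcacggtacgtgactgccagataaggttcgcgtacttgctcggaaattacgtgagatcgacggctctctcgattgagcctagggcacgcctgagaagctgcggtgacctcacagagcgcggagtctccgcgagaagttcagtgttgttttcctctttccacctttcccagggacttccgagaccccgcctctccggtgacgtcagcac
A match in these letters is a description of the sequence, and no match says only that the core is not in this window.

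The spread over cells was compared with counting error by a dispersion index, the sum over cells of the squared deviation from the count due at an equal level divided by that count, divided by 5. An index of 1 is what counting error alone gives. Ddit3 had an index of 43.8, place 35 of the 2901 genes, and Ppp1r15a 10.3, place 179. Atf5 and Trib3 followed with 5.04 and 4.55, and Atf4 had 1.29. Without cell 4 the index was 2.87 for Ppp1r15a and 1.36 for Trib3. Without cell 3 it was 4.50 for Ppp1r15a and 0.273 for Atf4. Without cell 4 that of Atf4 was 0.814. The median over all 2901 genes was 2.31, so Atf4 varied less than the median gene and the other 4 more. Ddit3, Ppp1r15a and Trib3 reached the minimum count only through cell 4, the same cell that raised their index. The list was also chosen with these counts known, so nothing is read from the places or from the comparison with the median. Without cell 4 the Ddit3 index was 0.952, near what counting error alone gives. The other 5 cells held only 16 counts of Ddit3, too few to show that they were even. Without cell 3 the Ddit3 index was 23.5. The index of Atf5 stayed between 4.31 and 5.55 whichever cell was left out.

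**Figure D4:**
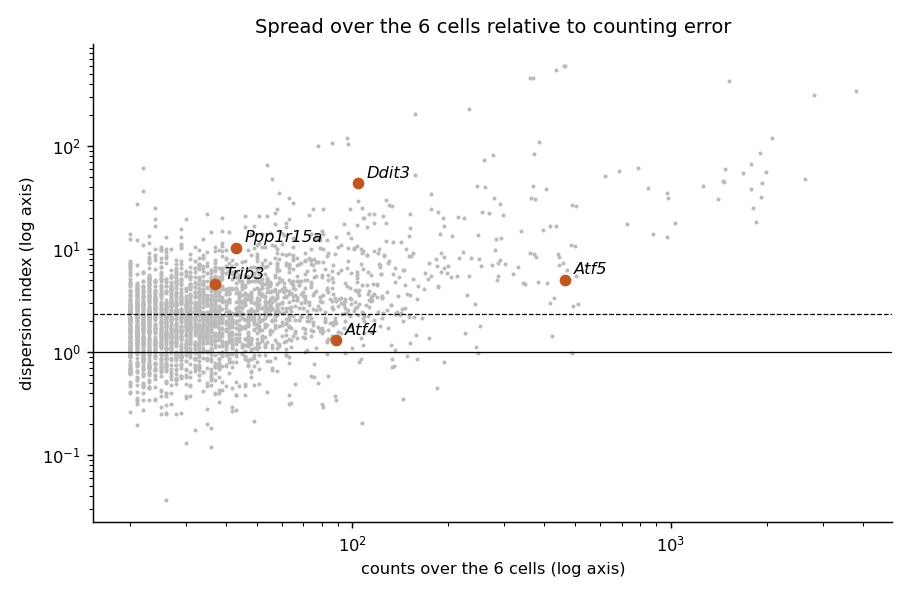
Dispersion index (vertical log axis) against the counts over the 6 cells (horizontal log axis) for genes with at least 20 counts. Grey points are single genes, orange points the 5 followed genes, the solid line marks counting error (1) and the dashed line the median gene (2.31). Ddit3 lies at 43.8 and Atf4 at 1.29, while Obp2a, of similar total count (97), has an index of 104.

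The cells that share Olfr741 did not share their Ddit3 and Ppp1r15a levels. Within that pair, cell 4 and cell 3 had 88 and 10 counts of Ddit3 (17.7-fold in CPM) and 29 and 5 of Ppp1r15a (11.7-fold), although Atf5 was level (1.09-fold). The Olfr740 cells 1 and 2 together had 5 counts of Ddit3 (116 CPM), and the Olfr743 cells 5 and 6 had 1 (29.2 CPM). The Olfr740 pair had 49 counts of Atf5 (1137 CPM), and the Olfr743 pair had 41 (1197 CPM).

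Among other transcription factors of the response, some were highest in cell 4 and some were even. Of the 20 ATF and C/EBP bZIP genes, 19 were found and 7 had at least 20 counts. Of these 7, Ddit3 and Cebpb were at least 4-fold higher in cell 4 and Creb3l1 at least 4-fold lower, and the median fold of the 7 was 1.02, against 1.03 over all 2901 genes (4.21% of which were higher and 12.5% lower). Ddit3 and Cebpb, with 16 and 11 counts outside cell 4, reached the minimum only through it, so nothing is read from this count. Cebpb, a C/EBP factor that pairs with ATF4 and CHOP, had 0, 4, 7, 15, 0 and 0 counts in cells 1 to 6, and cell 4 stood at 4.48-fold the pooled others (1.92 to 10.8). Atf3, an early stress-induced factor and known ATF4 target, was found 12 times in cell 4 (197 CPM), 2 times in cell 2 (58.0 CPM) and not in the others. With 14 counts in all it was below the minimum, and its fold was 19.7 (4.38 to 181). Against the floor it was at least 8.05-fold higher in cell 4 than in cell 3.

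Cebpg and Nfe2l2, in contrast, were level. Cebpg, the common dimer partner of ATF4, was found in all 6 cells, with a median of 291 CPM and 0.923-fold in cell 4 (0.515 to 1.58). Nfe2l2 (NRF2), the antioxidant factor that PERK also targets, had a median of 444 CPM and 1.02-fold in cell 4 (0.636 to 1.58). The high genes of cell 4 therefore included Ddit3, Atf3 and Cebpb but not Atf4, Cebpg or Nfe2l2.

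The eIF2 machinery was thinly covered. All 8 genes of eIF2 and of its exchange factor eIF2B were found, and Eif2s2, the beta subunit, was the 1 with at least 20 counts. Eif2s2 reached 361 CPM in cell 4 and 188 CPM in cell 3 (22 and 23 counts), and cell 4 stood at 2.33-fold the pooled others (1.28 to 4.15). The 5 phosphatase genes, which include Ppp1r15a, had their highest sum in cell 4, at 2.22-fold the pooled others (1.60 to 3.08). Of the 4 with at least 20 counts, Ppp1r15a alone was past 4-fold (4.21% of all genes were), and it reached the minimum through cell 4. Its catalytic partners Ppp1ca and Ppp1cb had 10 and 15 counts in cell 4, with medians of 115 and 208 CPM over the cells.

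Sums of genes for amino acid supply, which ATF4 is known to induce, lay in cell 4 inside the range of the other cells, and their folds had intervals that included 1. The synthesis list of 10 genes, 8 of them found, had 394 CPM in cell 4 and from 0 to 581 CPM in the other cells, the upper end from 5 counts in cell 1. Cell 4 stood at 1.49-fold the pooled others (0.877 to 2.45). Within it, Psat1, of serine synthesis, had 7 counts in cell 4 and 1 in cell 3, and was chosen after its values were seen. Got1 had 7 counts in cell 4 and 0.792-fold the pooled others. The transport list of 9 genes, 6 found, had 755 CPM in cell 4 against 171 to 1277 CPM elsewhere, the upper end from 11 counts in cell 1. Its fold was 1.41 against the pooled others (0.976 to 2.01) and 1.75 against cell 3 (1.15 to 2.64). Its members Slc38a2 and Slc3a2 stood at 1.03-fold and 1.68-fold in cell 4, each with an interval that included 1.

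The 12 tRNA synthetase genes were all found, and their sum was even. The lowest sum was 870.1 CPM (cell 2) and the highest 1264 CPM (cell 4), which stood at 1.13-fold the pooled others (0.859 to 1.47). Of the 5 with at least 20 counts none passed 4-fold in either direction. Over all genes with that minimum, 4.21% were higher and 12.5% lower in cell 4, so nothing is read from none among 5. Aars, alanyl-tRNA synthetase, had 28 counts in cell 4 (460 CPM) and 1.91-fold (1.16 to 3.11), and Sars had 2.32-fold (1.01 to 5.15). Wars had 17 counts in cell 3, 2 in cell 2 and 0 in cell 4.

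The list of stress feedback and cell death genes, which holds Trib3, Ppp1r15a, Chac1 and Sesn2 and is thus no independent evidence, was highest in cell 4. Of its 16 genes 12 were found, and Gdf15, Fgf21, Vegfa and Stc2 had no count in any cell. The sum was 464, 377, 441, 1264, 222 and 0 CPM in cells 1 to 6, and cell 4 stood at 3.33-fold the pooled others (2.39 to 4.63). Ppp1r15a and Trib3 gave 49 of the 77 counts in cell 4. The death genes Bbc3 and Bcl2l11, which encode PUMA and BIM, had 7 and 9 counts there. Bbc3 had 21 counts in cell 3, so its ratio of cell 4 to cell 3 was 0.671 (0.241 to 1.64), and Bcl2l11 stood at 2.46-fold the pooled others (0.916 to 6.37). For both death genes the interval of the fold of cell 4 included 1.

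The other arms of the unfolded protein response were not high as lists in cell 4. The 14 genes of the ATF6 arm and of endoplasmic reticulum chaperones, all found, had 936 CPM in cell 4 against 512 to 1287 CPM elsewhere, a fold of 0.858 (0.630 to 1.15). Hspa5 (BiP), the main chaperone of that compartment, had 10 counts in cell 4 and 50 in cell 3, and stood at 0.476-fold the pooled others (0.218 to 0.928). Calr, calreticulin, had 1 count in cell 4 and 29 in cell 3 (0.0842-fold, 0.00208 to 0.497). Herpud1, which acts in degradation from that compartment, was found 15 times in cell 4, 4 times in cell 2 and 1 time in cell 3 (9.85-fold, 3.40 to 34.6). It was the 1 gene of this list past 4-fold there, against 4.21% of all genes, and with 5 counts elsewhere it reached the minimum only through cell 4.

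The IRE1 list, 9 of 10 genes found, had 903 CPM in cell 4 against 426 to 1199 CPM in the other cells. Dnajb9, a co-chaperone and IRE1 target, stood at 2.05-fold in cell 4 (1.11 to 3.70), and Ern1, which encodes IRE1 itself, had no count. Sec24d, of vesicle export, had 18 counts in cell 3, 2 in cell 2 and 0 in cell 4. The mitochondrial stress list, through which ATF5 is known to act in other settings, had its highest sum in cell 4 (345 CPM, 2.38-fold the pooled others, 1.29 to 4.31). In it, Hspa9 (mortalin) had 13 counts in cell 4 and 5 in cell 3 (5.33-fold the pooled others, 2.05 to 14.8), and gave most of the 21 counts of the list there. Hspa9 was past 4-fold there, against 4.21% of all genes. With 8 counts outside cell 4, it reached the minimum of 20 counts only through that cell, so nothing is read from this. Hspd1 and Hspe1 had no count in cell 4, where 1.22 and 0.609 were due, and Tfam had none in any cell.

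Cytosolic heat shock genes had their lowest sum in cell 4. It was 1905 CPM there (1574 to 2285) and from 2644 to 4602 CPM in the other cells, of which the shallow cells 1 and 6 had intervals reaching down to 1878 and 1796 CPM, and cell 4 stood at 0.443-fold the pooled others (0.361 to 0.538). Hsp90aa1, Hsp90ab1 and Hspa8, which encode general folding chaperones, stood at 0.376-fold, 0.562-fold and 0.328-fold. Hspa1a, an inducible heat shock gene, had no count in any cell. Hspa1b of the same list had 14 counts over the cells, 10 of them in cell 3 and 3 in cell 4. Immediate early genes, which respond within minutes to stimulation or handling, had 1199 CPM in cell 4, inside the range of the other cells (849 to 1653) and 1.41-fold that of cell 3 (1.03 to 1.92). Jund, a member of this list, was highest in cell 4 (788 CPM, 1.79-fold the pooled others, 1.23 to 2.57). The part of handling in the Ddit3 level was not tested.

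**Figure D5:**
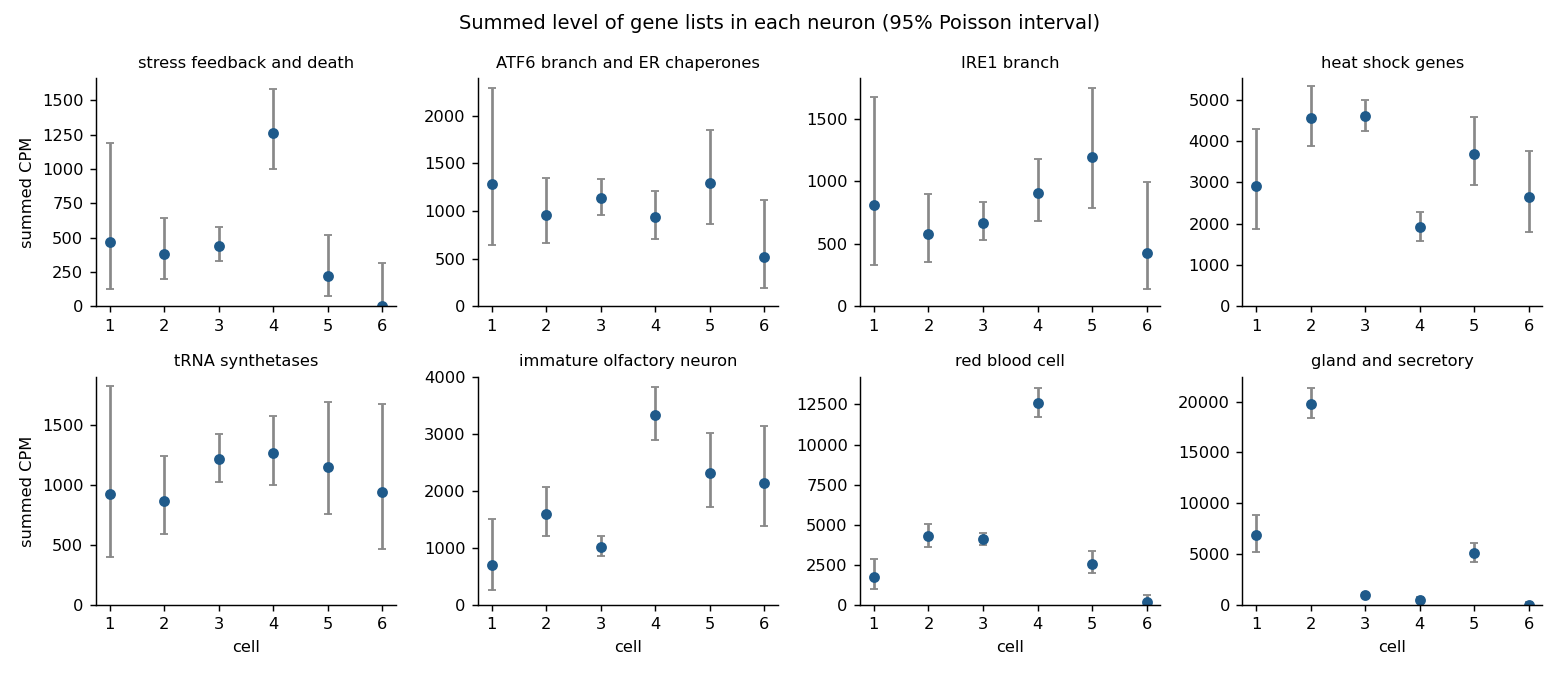
Summed level of 8 gene lists (vertical axes, CPM, a separate scale per list) in cells 1 to 6, with exact 95% Poisson intervals. In cell 4 the stress feedback and death list (1264 CPM), the immature neuron list (3333 CPM) and the red blood cell list (12610.4 CPM) were highest and the heat shock list (1905 CPM) was lowest, while the ATF6 list (936 CPM) lay inside the range of the other cells.

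Within the list of the receptor feedback loop, genes differed in cell 4. Adcy3, the adenylyl cyclase known to end the feedback once a receptor signals, had 13, 15, 152, 5, 7 and 1 counts in cells 1 to 6. Cell 4, at 82.1 CPM, stood at 0.0873-fold the pooled others (0.0280 to 0.207), and its level was close to the 85.3 CPM of cell 6. Rtp2, a chaperone of receptor transport, had 4, 14, 84, 2, 10 and 12 counts and stood at 0.0529-fold in cell 4 (0.00634 to 0.195). Both were at least 4-fold lower in cell 4, against 12.5% of all genes, and the other 4 feedback genes with at least 20 counts were not. Lhx2, a transcription factor of receptor expression, stood at 0.434-fold (0.191 to 0.874), and the sum of the list at 0.758-fold (0.649 to 0.881). Ebf1, a transcription factor of olfactory neurons, was level (1.24-fold, 0.796 to 1.88). The demethylase gene Kdm1a (LSD1), which is needed for receptor choice, had 6 counts over all cells.

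Several marker lists also stood high in cell 4. The 8 immature neuron markers, 7 of them found, summed to 3333 CPM in cell 4 and to 697 to 2309 CPM elsewhere. Of the 5 with at least 20 counts, 3 were highest in cell 4, against 22.1% of all genes with that minimum. These were Stmn2 (1.88-fold the pooled others, 1.46 to 2.40), Marcksl1 (4.45-fold, 2.12 to 9.60) and Tubb3 (4.92-fold, 2.07 to 12.3). Marcksl1 and Tubb3, with 14 and 10 counts outside cell 4, reached the minimum only through it, so nothing is read from this count. Stmn1 stood at 4.13-fold the pooled others in cell 4 (558 CPM) but was highest in cell 6 (853 CPM). Gap43 was also highest in cell 6 (682 CPM, against 213 CPM in cell 4), and Gng8 had no count in any cell. Below the minimum, Dbn1 was highest in cell 4 (10 counts, and 3 in the other cells). Dpysl3 was highest in cell 5 (222 CPM, against 131 CPM in cell 4). The 5 red blood cell markers, 4 found, summed to 12610.4 CPM in cell 4 and to 171 to 4264 CPM elsewhere, and the erythroid enzyme gene Alas2 was at 0 in every cell. The 6 sustentacular cell markers had 640.4 CPM in cell 4 against 85.3 to 841 CPM, and Cyp1a2 was at 0. The 8 gland and secretory markers had 509 CPM against 0 to 19809.7 CPM, and Muc5b and Lyz2 were at 0. Ensheathing glia markers had 4 counts in cell 4 and immune markers 1, with Frzb, Npy, Ptprc, C1qa and C1qb at 0 throughout, and the 5 basal and 5 microvillar cell markers had no count in any cell. The mature markers were at 17224 CPM in cell 4, inside the range of 16160 to 31000 CPM of the other cells and at 0.645-fold their pooled level (0.603 to 0.690). Of these 9 genes 2 were at least 4-fold lower there, against 12.5% of all genes: Cnga4 and Adcy3, which is also in the feedback list. Omp had its lowest level there (4680 CPM, 0.576-fold), and Stoml3, Cnga2 and Gfy stood at 0.634-fold, 0.484-fold and 0.675-fold. Gng13, Rtp1 and Gnal were level (1.07-fold, 0.932-fold and 0.900-fold, each with an interval that included 1). The part of these transcripts in the Ddit3 level of cell 4 was not tested.

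The 4 genes whose pattern over the 6 cells was most like that of Ddit3 were Serinc2, Gm24105, Ypel5 and Tmem268, with Pearson's r of 0.985 to 0.969 on log2(CPM + 10) among 2767 genes. They had 19, 23, 38 and 15 counts in cell 4. For Atf5 the 5 most alike were Sept3, Cbfa2t3, Gm14150, Rpsa-ps11 and Trib3, with r of 0.955 to 0.937. Trib3 held place 5 for Atf5 and place 35 for Ddit3, and Ddit3 itself held place 167 for Atf5 (r of 0.822). Atf4 lay near the other end for Ddit3 (r of -0.63, place 2608). The points are 6 libraries of unequal depth, the named genes except Sept3 had no count in the shallow cells 1 and 6, and the names changed with the settings.

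In the annotation, 4 of the genes share exonic bases with a neighbour. Ddit3 shares 68 exonic bases at its 3' end with Mars on the other strand, and Mars had 1 count in cell 4 and 11 in cell 3. The start of Ddit3 shares 13 bases with Gm4189, which had 4 counts, all in cell 4. The symbol Ddit3 names 2 gene records in the annotation, the second lying inside the first, and the table holds 1 row for both. Ppp1r15a shares 12 exonic bases at its 3' end with Tulp2, which had no count in any cell. Atf5 shares 82 exonic bases near its start with Nup62 and Il4i1, which had 5 and 0 counts over all cells, and Eif2ak3 shares 485 with Gm43292, which had 1. Since the strand setting of the counting is not given in the sources used here, reads in these bases cannot be assigned to 1 gene.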

How the data were processed

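Each of 6 single neurons gave 1 CEL-Seq2 library with molecular identifiers. Alignment used read 2 alone, per the labels. CASAVA, HTSeq, Bowtie2 2.3.4 and the build mm10 appear in the submitters' processing notes, without roles. The authors deposited whole-number counts for 55341 gene symbols in 1 column per cell, no column repeated another, and all were used. Strand setting, counting annotation, multi-mapped reads and identifier collapsing: each is not given in the sources used here. Gene positions are 1-based, from GENCODE M21 (GRCm38, the assembly of mm10).

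CPM was computed over all genes of a cell. Levels carry exact 95% Poisson intervals, shares Clopper-Pearson intervals and ratios exact conditional binomial intervals, all covering counting error alone. No animals are named, so the 6 cells are 1 group without biological replicates and no p-value is given. Folds are against the pooled other 5 cells. Folds, intervals and the dispersion index were tested on simulated data (Python 3.11.15, pandas 2.3.3, SciPy 1.17.1).

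The 10 genes, 14 pathway lists and 9 marker lists were chosen with earlier results of these data known. Named are the 10 genes, from each pathway list mainly the 4 of highest median CPM and those at least 4-fold above the pooled other cells with at least 10 counts in 1 cell, and the 5 of most similar pattern (mean of at least 50 CPM), of which 1 is not reported here. Other list genes are named where a count is 0 or for their role. Alternatives were 3 other scalings, the unweighted mean of the other cells, cells left out, and other limits, pseudocounts and correlations. Added after the data were seen were the share of Ddit3 in the counts of Ddit3 and Atf5, list ratios of cells 3 and 4 alone, counts past 4-fold without cells under 20000 counts, and, for the followed genes besides Ddit3, folds against the unweighted mean and with cells left out. No protein sequences were used here.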

Additional observations from a re-analysis of the deposited data

Results flagged for a closer look

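Over 31 values (the 10 genes and the summed lists with any count), 10 had 1 cell whose gap to the nearest other cell, divided by the whole range, exceeded Dixon's 95% limit for 6 cells. Chance alone flags about 1 group in 20, but the genes and lists were chosen with these values known and the cells differ in depth, so the flags are a description and no test. Values with several cells at 0 reach the limit easily. Cell 4 stood apart for Ddit3 (1445 CPM, the next cell 145 CPM, ratio 0.900), Trib3 (328 CPM, the next 122 CPM, ratio 0.627) and Chac1 (49.3 CPM from 3 counts, all others at 0). It also stood apart for the stress feedback and death list (1264 CPM, the next 464 CPM), the red blood cell list (12610.4 CPM, the next 4264 CPM) and the ensheathing glia list (65.7 CPM from 4 counts, the next 24.5 CPM). Cell 1 stood apart for Asns (348 CPM from 3 counts, the next 8.16 CPM). Cell 3 stood apart for Eif2s1 (40.8 CPM from 5 counts) and for the receptor choice feedback list (5394 CPM, the next 3483 CPM). Cell 2 stood apart for the gland and secretory list (19809.7 CPM, the next 6850.1 CPM). Ppp1r15a, whose next cell was at 203 CPM, was not flagged.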

How the results depend on the processing

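The Ddit3 fold of cell 4 (18.1) stayed inside its interval under each alternative run: 17.3, 17.4 and 18.8 with the other scalings, 26.7 against the unweighted mean, 13.9 per count of Atf5, 16.2 without cells under 20000 counts, and 17.0 to 21.7 with each other cell left out. The Atf5 median (1231 CPM) ran from 1218 to 1613 CPM, and 5 of the 10 genes were highest in cell 4 under each scaling. A limit of at least 3 counts lowered the median number of genes found per cell from 5.5 to 3.5. The 122 genes at least 4-fold higher in cell 4 became 558 at 2-fold, 19 at 8-fold, 33 of 786 with at least 50 counts and 1311 of 16483 with at least 1 count. Of the followed genes 2 passed 4-fold at the minimum of 20 counts, and 1 passed at 8-fold or with at least 50 counts. With at least 1 count, 3 passed 4-fold. The dispersion index of Ddit3 ran from 0.952 (without cell 4) to 52.0, with 23.5 without cell 3, and that of Atf5 from 4.31 to 5.55. Against the unweighted mean the summed fold of cell 4 was 1.79 for the bZIP list (1.53 pooled), 0.941 for the receptor feedback list (0.758) and 4.91 for the red blood cell list (3.49). Against cell 3 alone it was 0.642, 3.27 and 3.09 for the receptor feedback, immature neuron (2.53) and red blood cell lists. The bZIP list holds Ddit3, which gave 88 of its 322 counts in cell 4, so its fold is no independent evidence. Trib3 and Atf5 had folds of 8.39 and 1.70 against the unweighted mean, and Atf5 1.86 without cell 3. Of the 5 genes most like Atf5, 0 to 3 were shared under the alternatives, and of those most like Ddit3, 1 to 4. The causes were not tested. No value reversed its direction, and counts past a fold were computed for cell 4 alone. No paired analysis was possible because all cells form 1 group. Depth limits cells 1 and 6, where 3 counts are 348 and 256 CPM.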
